A study of Triticum aestivum with 21 samples.

Results

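The cytochrome P450 transcript CYP86 was represented on the wheat array by 3 control probe sets, which read the 3′ end, the middle and the 5′ end of the transcript. They were found as the rows whose ID begins with AFFX-Ta_CYP86-TA, and they were 3 of the 61290 probe sets in the table. The name CYP86 rests on these IDs, because the annotation used here gives no gene symbol for the 3 rows. In stage means the middle and 5′ regions lay above 17 control probe sets named Tag in every stage, and the 3′ region did so up to immature pollen. The Tag probe sets were taken from their names to stand for no wheat gene. The 3′ region rose 1.83-fold between tetrads and immature pollen and then fell at least 7.87-fold to mature anthers. There its mean lay below the highest of those Tag probe sets and above the others. The middle and 5′ regions were 1.68-fold and 1.64-fold higher in mature anthers than in the first 4 stages on the deposited scale, a direction that turned when the arrays were scaled to their hybridization controls. Within arrays, where such scaling cancels, the change of the 3′ region to mature anthers differed from that of the other two.

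Enzymes of the CYP86 family are membrane-bound monooxygenases that add a hydroxyl group to the last carbon of a fatty acid. In Arabidopsis such hydroxylated fatty acids are building blocks of cutin and suberin, the lipid polymers that seal the outer surface of a plant and certain internal walls. Anthers carry a cutin-covered epidermis, and the pollen wall inside them also contains lipid polymers, to which hydroxylated fatty acids made by related P450 enzymes contribute. Control transcripts of this array are each read by several probe sets placed along the RNA. Labelling starts at the poly(A) tail, so the 3′ probe set is the one nearest to the point where labelling begins.

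RNA came from whole anthers of untreated wild-type bread wheat, cultivar Chinese Spring, a hexaploid grown in a glasshouse. By their labels the 7 groups of arrays differed only in developmental stage. Pre-meiosis was named PM, and prophase of meiosis I up to pachytene, beginning at leptotene, LP. DA ran from diplotene up to anaphase I, and TT covered both telophases. Tetrads were named T, anthers with immature pollen IP, and mature anthers MAN. According to the methods, staged anthers from several plants were pooled for each stage, and the pool's RNA was amplified in 2 rounds before it was hybridized to 3 arrays as technical replicates. Every SD, SE and p for a stage or a difference between stages therefore reflects how arrays of the same pool vary, and says nothing of variation among plants. With a single pool per stage, a difference between stages cannot be told apart from one between pools or their processing. With 3 arrays per stage and 21 in all, the number of arrays limits the precision. Values below are log2 of the deposited RMA intensity, and n is 3 arrays per stage unless stated. A difference was called when its adjusted p was under 0.05, in a limma fit over all arrays with Benjamini-Hochberg adjustment over all 61290 rows. In whole anthers, fewer cells of a type cannot be told apart from less RNA per cell.

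The arrays were alike in their overall level, with a median between 5.57 and 5.71 and between 59.5% and 63.9% of the probe sets above 5. The 18 hybridization controls, bacterial and phage RNAs that are added at set amounts before hybridization, were less even. Their mean was 8.62 on IP replicate 1 and 10.99 to 11.21 on the 3 MAN arrays, against 9.81 to 10.57 on all others. The 27 controls for poly(A) RNA had means of 6.27 to 7.5 per array.

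The study took a log2 value above 5 as a sign of expression. The deposited values carry no detection call. All 63 of the 63 member values (3 regions on 21 arrays) were above 5. Above 6 were 19 of 21 arrays for the 3′ region and all 21 for each of the middle and 5′ regions. Replicates 2 and 3 of MAN were the arrays on which the 3′ region was below 6. For scale, 17 control probe sets named Tag, taken from their names to stand for no wheat gene, had stage means of 3.41 to 6.25, with medians of 4.15 to 4.51. Between 5 and 6 of these 17 were above 5 in each stage, so a value over 5 is not by itself a sign of transcript. The 5′ and middle regions had stage means above the highest of these probe sets in each stage. The 3′ region was above them from PM to IP. In MAN the 3′ region had a mean of 6.05, which lay within the range of the 17, whose highest member reached 6.25 there. That member was the only 1 of the 17 with a mean above 6 in MAN, where their median was 4.51. The 3′ mean thus lay above all the others. On each of the 3 MAN arrays the 3′ region was below the highest Tag probe set, with 6.3, 5.95 and 5.92 against 6.49, 6.17 and 6.2. Folds of the 3′ region against MAN are therefore given as lower bounds, in which each MAN array counts at the value of that highest Tag probe set. The measured differences stand beside them.

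Placed among all probe sets of the same array, the 3′ region lay at percentile 75.6 to 86.9 from PM to IP and at 53.6 to 60.1 in MAN. The middle region lay between percentile 63.1 and 76.1 from PM to IP and had a mean percentile of 75.4 in MAN. The 5′ region kept to percentile 69.2 to 74.6 from PM to IP and averaged 80.2 in MAN. These percentiles depend on the affinity of each set's probes as well as on transcript, so they place a region among the array's signals and give no order between the 3 regions.

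The 3′ region, AFFX-Ta_CYP86-TA_3_at, varied most over development. Replicates 1, 2 and 3 gave 8.06, 7.88 and 7.9 in PM, and 8.43, 8.35 and 8.76 in LP. They gave 8.32, 8.26 and 8.23 in DA and 8.19, 8.28 and 8.01 in TT. In T they gave 8.26, 8.46 and 8.45, in IP 9.26, 9.04 and 9.49, and in MAN 6.3, 5.95 and 5.92. Every IP array was thus above every array of the other stages, and every MAN array was below them all. Means were 7.94 ± 0.0979 (SD, n = 3) in PM, 8.51 ± 0.215 in LP and 8.27 ± 0.0438 in DA. They were 8.16 ± 0.139 in TT, 8.39 ± 0.113 in T, 9.26 ± 0.225 in IP and 6.05 ± 0.211 in MAN. On the linear scale the authors deposited, these levels correspond to mean intensities of 246 in PM, 620 in IP and 66.9 in MAN.

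The middle region, AFFX-Ta_CYP86-TA_M_at, was lower in range. Replicates 1, 2 and 3 gave 6.71, 6.56 and 6.88 in PM, 6.92, 6.91 and 6.77 in LP, and 6.67, 6.64 and 6.97 in DA. In TT they gave 6.55, 6.54 and 6.76, and in T 6.96, 7 and 6.96. In IP they gave 7.86, 7.23 and 7.13, and in MAN 7.77, 7.37 and 7.34. The IP and MAN arrays overlapped each other and lay above all others, and replicate 1 was the highest of both. Stage means were 6.72 ± 0.163 (SD, n = 3) in PM, 6.86 ± 0.0838 in LP, 6.76 ± 0.182 in DA, 6.62 ± 0.124 in TT and 6.97 ± 0.0239 in T, then 7.41 ± 0.394 in IP and 7.49 ± 0.243 in MAN. The SD in IP was the largest of this region and came with the array on which the hybridization controls were lowest.

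The 5′ region, AFFX-Ta_CYP86-TA_5_at, was flat through the tetrad stage. Its 15 arrays from PM to T lay between 7.18 and 7.42. Replicates 1, 2 and 3 gave 7.69, 7.58 and 7.39 in IP, of which the last overlapped with earlier stages. In MAN they gave 8.06, 7.97 and 8.01, above every other array. Stage means were 7.27 ± 0.12 (SD, n = 3) in PM, 7.27 ± 0.0686 in LP, 7.34 ± 0.0762 in DA, 7.33 ± 0.0516 in TT and 7.33 ± 0.102 in T, followed by 7.55 ± 0.153 in IP and 8.01 ± 0.0399 in MAN.

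**Figure D1:**
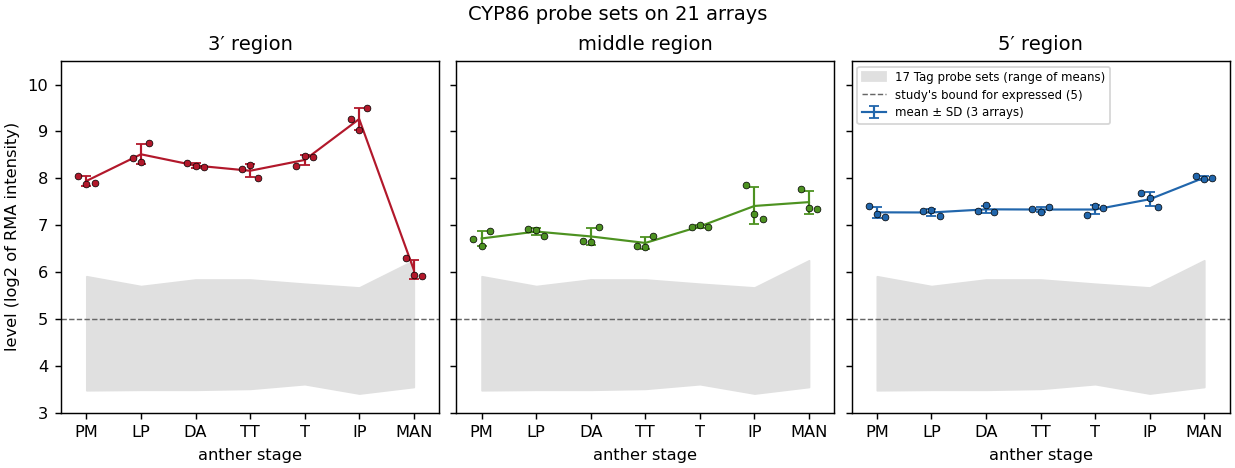
Log2 RMA intensity (y axis) of the 3′, middle and 5′ regions of CYP86 on each array (points) by anther stage (x axis), with lines through the stage means, error bars of 1 SD over 3 arrays and a grey band for the range of means of the 17 Tag probe sets. The 3′ region peaks in IP at 9.26 and drops to 6.05 in MAN, inside the band, whereas the middle and 5′ regions have their highest means, 7.49 and 8.01, in MAN.

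Between the highest and lowest stage the 3′ region spanned 3.21 log2 units, more than 94% of all probe sets, whose median range was 0.645. The middle region spanned 0.871 and the 5′ region 0.744, at percentiles 62.7 and 56.3. Over the first 5 stages, PM to T, the ranges were 0.569, 0.353 and 0.068 for the 3′, middle and 5′ regions. The median SD within a stage was 0.139, 0.163 and 0.0762, so the 5′ means of these 5 stages differed by less than the spread between arrays.

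All 3 regions differed over the 7 stages (moderated F test in limma, adjusted p = 1.5e-15 for the 3′, 3.1e-05 for the middle and 2.6e-06 for the 5′ region). Among all probe sets 68.2% passed this test, so passing it sets CYP86 apart from few others. Without MAN the adjusted p was 2.8e-07 for the 3′, 0.00184 for the middle and 0.213 for the 5′ region, where 35.9% of all probe sets passed. The difference of the 5′ region over development was therefore called only with mature anthers included.

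During meiosis the only step called was at the 3′ end. Between PM and LP the 3′ region rose by 0.57 (1.48-fold, SE 0.131, adjusted p = 0.00897 in limma), with all 3 LP arrays above all 3 PM arrays. It was the 1 member called of 3, where 5.9% of all probe sets were called. The middle region differed by 0.15 (SE 0.152, adjusted p = 0.675) and the 5′ region by 0 (SE 0.102, adjusted p = 0.992). Without LP replicate 3, the highest of its stage, the 3′ difference was 0.447 with an adjusted p of 0.0917 in limma. By the methods' t-test on the 2 stages alone its adjusted p was 0.286.

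From LP to T no step of any region was called by limma over all arrays. Array weights called the 3′ and middle regions for T against TT (adjusted p of 0.0341 and 0.0189), and limma on these 2 stages alone called the middle region (adjusted p = 0.0453). The shares of all probe sets called were 4.56% for DA against LP, 2.62% for TT against DA and 6.2% for T against TT. Before adjustment 1 of these differences had a p under 0.05 in limma, that of the middle region from TT to T. Its 3 T arrays lay above its 3 TT arrays, by a mean of 0.35 (SE 0.152, adjusted p = 0.221). Of the 10 pairs that can be formed from PM to T, limma called 2 for the 3′ region (LP over PM and T over PM, the latter by 0.45, adjusted p = 0.0173) and 0 for each of the others. The share of all probe sets called for T against PM is not given here.

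Immature pollen followed the tetrads with higher levels of the 3′ end. The 3′ region rose by 0.87 from T to IP (1.83-fold, SE 0.131, adjusted p = 1.5e-05 in limma), and 97.4% of all probe sets had a lower difference. In the middle region the difference was 0.44 (1.35-fold, SE 0.152, adjusted p = 0.0493 in limma), at the edge of the threshold. It was not called without IP replicate 1, when it was 0.21 (adjusted p = 0.397), or without any of the 3 T arrays (adjusted p of 0.1 to 0.124). The 5′ region differed by 0.22 (SE 0.102, adjusted p = 0.161), with overlapping arrays. Thus limma called 2 of 3 members here, beside 17.2% of all probe sets.

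The study compared its late stages with PM, LP, DA and TT one by one. Set against the average of these first 4 stages, all 3 regions were higher in IP. The 3′ region was higher by 1.04 (2.06-fold, SE 0.103, adjusted p = 7.7e-09 in limma), the middle region by 0.67 (SE 0.12, adjusted p = 7.4e-05) and the 5′ region by 0.25 (SE 0.0807, adjusted p = 0.0192). In this direction 12.6% of all probe sets were called, and 18.8% were called lower, 31.3% in all. Against the single stages, the 5′ region was not called for DA (adjusted p = 0.135) or TT (adjusted p = 0.128) in limma. Its call against their average was lost without IP replicate 1 (0.178, adjusted p = 0.173) and without IP replicate 2 (0.237, adjusted p = 0.0716).

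In mature anthers the 3′ region was lower than in any other stage. It fell from IP to MAN at least 7.87-fold (a bound of 2.98 on the log2 scale). The measured difference was -3.21 (SE 0.131, adjusted p = 2.5e-17 in limma). On the deposited scale the 5′ region rose by 0.46 (1.38-fold, SE 0.102, adjusted p = 3.5e-04), and its MAN arrays did not overlap with its IP arrays. For the middle region the difference was 0.08, with a 95% interval of -0.23 to 0.4 (adjusted p = 0.648) and overlapping arrays. Scaled to the hybridization controls, all 3 regions were lower in MAN than in IP, with differences of -4.62 (3′, adjusted p = 4.1e-41), -1.33 (middle, adjusted p = 1.8e-04) and -0.951 (5′, adjusted p = 0.0063) in limma. That scaling raises IP replicate 1, where the controls were lowest, and its p-values overstate the precision, as described further on. Of all probe sets on the deposited scale, 64.3% were called in this step, 38.7% higher and 25.6% lower.

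Compared with those first 4 stages, the 3′ region was at least 3.82-fold lower in MAN, with a measured log2 difference of -2.17 (SE 0.103, adjusted p = 4.2e-16 in limma). The middle region was higher by 0.75 (1.68-fold, SE 0.12, adjusted p = 4.9e-06) and the 5′ region by 0.71 (1.64-fold, SE 0.0807, adjusted p = 1.9e-08). In none of the 3 regions did the MAN arrays overlap with the arrays of those 4 stages. The share of all probe sets without overlap was not counted, here or between other stages, so this does not set CYP86 apart. The contrast of MAN with those 4 stages called 41.4% of all probe sets as higher and 27.8% as lower, 69.2% in all. A call in either direction was thus common. The smaller rises of the middle and 5′ regions depend on how the arrays are scaled, as the values with the hybridization controls given further on show.

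The levels of each region can be put in order over the stages. For the 3′ region the order from high to low was IP, LP, T, DA, TT, PM and MAN. Limma separated IP from LP (0.75, adjusted p = 6.4e-05) and PM from MAN (a measured 1.89, adjusted p = 1.6e-12), while the 4 steps between LP and PM had an adjusted p of 0.367 to 0.814. For the middle region the order was MAN, IP, T, LP, DA, PM and TT, and the step from IP to T was the only one called between neighbours. For the 5′ region it was MAN, IP, DA, TT, T, PM and LP, where the step from MAN to IP was the only one called and IP exceeded DA by 0.21 (adjusted p = 0.135). Of the 21 pairs of stages limma called 13 for the 3′, 10 for the middle and 8 for the 5′ region. How many of these pairs are called for a usual probe set was not counted, so these numbers do not set the regions apart. For MAN against IP alone, 64.3% of all probe sets were called.

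Whether the regions changed differently was tested within arrays. On each array the log2 value of a region was subtracted from that of another, which cancels any factor that scales a whole array, and the difference was followed over the stages. The size of such a gap within a stage reflects the probes and has no meaning by itself, but its change does. The gap between the 3′ and middle regions was 1.23 ± 0.185 (SD, n = 3) in PM, 1.42 ± 0.101 in T, 1.85 ± 0.478 in IP and -1.44 ± 0.0327 in MAN. The gap between the 3′ and 5′ regions was 0.67 ± 0.0398 in PM, 1.06 ± 0.0223 in T, 1.71 ± 0.339 in IP and -1.96 ± 0.178 in MAN. Both gaps turned sign in mature anthers on all 3 arrays. The gap between the middle and 5′ regions stayed between -0.71 and -0.14 in all 7 stages.

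**Figure D2:**
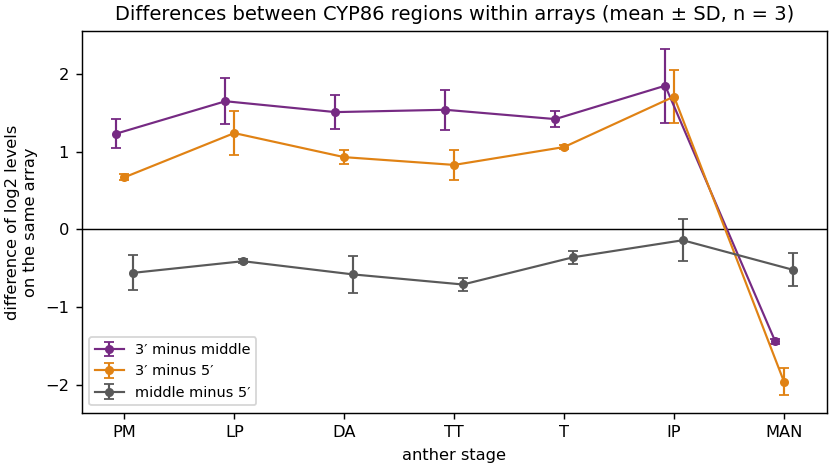
Difference in log2 intensity between 2 regions of CYP86 on the same array (y axis) by anther stage (x axis), with points at the stage means, lines through them and bars of 1 SD over 3 arrays. Both gaps that hold the 3′ region are positive from PM to IP and drop to -1.44 and -1.96 in MAN, while the gap between the middle and 5′ regions stays between -0.71 and -0.14.

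From the first 4 stages to MAN the 3′ region changed by -2.92 relative to the middle region (SE 0.143, adjusted p = 8.4e-16 in limma) and by -2.88 relative to the 5′ region (SE 0.117, adjusted p = 1.4e-17). With the MAN values of the 3′ region at the bound, these changes were -2.69 and -2.64. The middle region relative to the 5′ region changed by 0.04 (SE 0.112, adjusted p = 0.753). From IP to MAN the corresponding changes were -3.29 (adjusted p = 1.6e-14), -3.67 (adjusted p = 2.0e-17) and -0.38 (adjusted p = 0.0229). The last of these was not called without IP replicate 1, MAN replicate 2 or MAN replicate 3 (adjusted p of 0.0758 to 0.176).

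Earlier steps separated the ends of the transcript as well, by smaller amounts. From PM to LP the 3′ region gained 0.57 on the 5′ region (SE 0.148, adjusted p = 0.0201 in limma), and this call ended when PM replicate 2, PM replicate 3 or LP replicate 3 was left out (adjusted p of 0.053 to 0.183). From T to IP the gain was 0.65 (SE 0.148, adjusted p = 0.00208). The gain on the middle region was 0.42 from PM to LP (adjusted p = 0.194) and 0.44 from T to IP (adjusted p = 0.107). Without IP replicate 1 the latter was 0.663 and was called (adjusted p = 0.00948). From the first 4 stages to IP the regions also changed unequally. The 3′ region gained 0.79 on the 5′ region (SE 0.117, adjusted p = 5.0e-06), the middle region gained 0.42 on it (SE 0.112, adjusted p = 0.00463), and the gain of the 3′ on the middle region, 0.37 (SE 0.143), was at the edge of the threshold.

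The profiles over the 7 stage means had a Pearson r of -0.303 between the 3′ and middle regions, -0.719 between the 3′ and 5′ regions and 0.846 between the middle and 5′ regions. Without MAN the same values over 6 stage means were 0.943, 0.873 and 0.855. These are descriptions over points that share arrays. From PM to IP each region had its highest mean in IP, but the changes were unequal, as the gaps show. From PM to T the 5′ region ranged by 0.068, less than its median SD within a stage of 0.0762. The r values that hold it therefore say little about shape before IP. With MAN both r values of the 3′ region were negative, only weakly so with the middle region. Adding that stage alone turned their sign.

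Unequal change along a transcript was common on these arrays. The other 6 wheat control transcripts with 3 regions (actin, ef1a, gapdh, G-6-PDH, Sucsyn and Ubiquitin) gave 18 region pairs. The 3 pairs of a transcript share their regions, so the 18 are not independent cases. Over the 7 stages 15 of the 18 (83.3%) differed in their course by the F test in limma. From the first 4 stages to MAN, 13 of the 18 pairs (72.2%) differed in their change, from IP to MAN 15 (83.3%) and from T to IP 6 (33.3%). A call of that kind in CYP86 is therefore not particular to it.

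Calls in opposite directions were also counted. On the deposited scale, in MAN against the first 4 stages CYP86 was the only one of the 7 control transcripts with 1 region called higher and another called lower. From IP to MAN this was so for CYP86 and ef1a. The same transcripts had such calls with the arrays centred on the median, but 0 of the 7 did on the scale of the hybridization controls. Actin, a cytoskeletal protein, rose in all regions in MAN against the first 4 stages, by 8.97 at the 3′ end, 6.02 in the middle and 3.81 at the 5′ end. G-6-PDH, which is named like the first enzyme of the pentose phosphate pathway, had differences of -4.62, -4.55 and -1.86. Sucsyn, named like sucrose synthase, which splits sucrose for use in sink tissues, had -1.62 (3′), -0.5 (middle) and -0.03 (5′), the last of which was not called. Whether CYP86 differs from these transcripts in how its regions diverge was not tested.

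**Figure D3:**
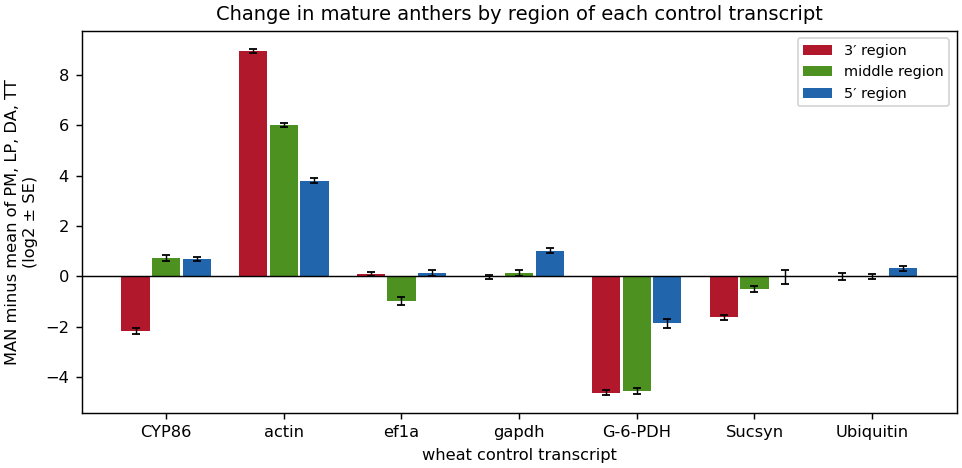
Log2 difference between MAN and the first 4 stages averaged (y axis) for the 3′, middle and 5′ regions of 7 wheat control transcripts (x axis), with bars of 1 SE from the limma fit on the deposited scale. On this scale CYP86 alone has a region called lower (3′, -2.17) beside regions called higher (middle 0.75, 5′ 0.71).

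The direction of the middle and 5′ regions in mature anthers depended on the scale. RMA makes the distributions of the arrays alike, and the hybridization controls were higher in MAN than elsewhere. With the arrays scaled to those controls, the 3′ region was lower in MAN than in the first 4 stages by a log2 difference of -3.06 (SE 0.267, adjusted p = 2.4e-29 in limma). The middle region then differed by -0.14 (adjusted p = 0.618) and the 5′ region by -0.19 (adjusted p = 0.519), so both signs turned and neither was called. For these differences limma gave each region the same SE of 0.267, a spread pooled over all probe sets. That spread includes an array shift that all probe sets share, so the p-values on this scale overstate the precision. The same scaling moved the median probe set from 0.13 to -0.76, and the shares called higher and lower from 41.4% and 27.8% to 5.1% and 67.9%. With each array centred on its median, the differences were -2.28 (3′), 0.64 (middle) and 0.6 (5′), all called, and 31.3% of the probe sets were called higher and 31.9% lower.

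With all arrays kept, all 3 regions stayed higher in IP than in the first 4 stages whichever scale was used. Scaled to the hybridization controls, the differences were 1.56 (3′), 1.19 (middle) and 0.76 (5′), with an adjusted p of 1.8e-07, 1.6e-04 and 0.0277 in limma, while the median probe set went from -0.05 to 0.47. The controls averaged 8.62 on IP replicate 1 against 10.29 and 10.2 on the other IP arrays, so that array raises the scaled IP levels. No value of this scaling without that array is given here. Without it the 5′ difference on the deposited scale was 0.178 and was not called (adjusted p = 0.173 in limma). The decline of the 3′ region in MAN and its rise in IP held on every scale tried.

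**Figure D4:**
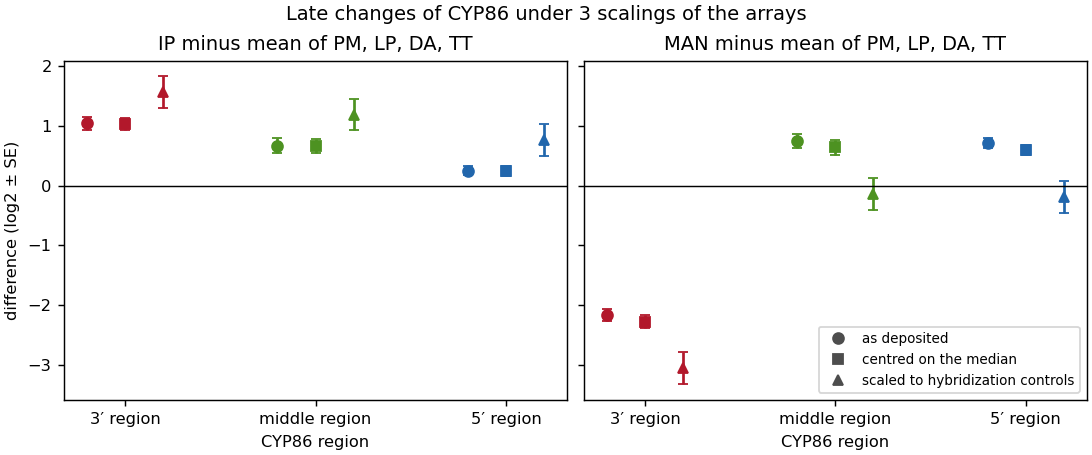
Log2 difference of the 3 CYP86 regions in IP and in MAN against the first 4 stages averaged (y axis), for intensities as deposited, centred on the array median and scaled to the hybridization controls, with bars of 1 SE. The 3′ difference in MAN stays between -3.06 and -2.17, whereas the middle and 5′ differences go from 0.75 and 0.71 to -0.14 and -0.19 with the hybridization controls.

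Of the genes of fatty acid hydroxylation, cuticle and pollen wall lipid that were looked for by symbol, the annotation gave only LTP3, a lipid transfer protein, with 2 probe sets. Lipid transfer proteins bind lipids and are secreted to cell walls and surfaces. Ta.1282.1.S1_x_at of LTP3 had a mean of 5.74 in PM, 8.43 in IP and 10.45 in MAN, and Ta.1282.4.S1_at had 4.17, 5.38 and 7.92. Both rose in IP against the first 4 stages, by 2.6 and 1.21, and both rose further in MAN, by 4.62 (SE 0.111, adjusted p = 1.8e-22 in limma) and 3.75 against the same stages. The middle and 5′ regions of CYP86 were called higher in IP and MAN too on the deposited scale, whereas the 3′ region was called higher in IP and lower in MAN. Since the annotation gives a symbol for 1273 probe sets, other genes of this pathway may be on the array without a name here.

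Markers of cell types moved between the same stages. Raftin, a protein that the tapetum (the cell layer that feeds the developing pollen) makes for the pollen surface, was read by 4 probe sets with stage means of 10.53 to 13.93 from PM to IP and 7.78 to 8.89 in MAN. All 4 were higher in IP than in the first 4 stages, by 0.91 to 1.52 (adjusted p of at most 6.7e-06 in limma), and all 4 fell from IP to MAN, with differences of -5.54 to -3.66 (adjusted p of at most 6.4e-17). With the 2 LTP3 probe sets, which the tapetum list also holds, 6 of 6 were higher in IP than in the first 4 stages. In MAN 4 of 6 were lower than in those stages and 2 were higher. Of 5 probe sets for green tissue (PRK, FBP and PsbP, proteins of photosynthesis), 4 were higher in IP than in the first 4 stages. In MAN 4 of these 5 were lower and 1 higher. Against the same stages 12.6% of all probe sets were called higher and 18.8% lower in IP, and 41.4% higher and 27.8% lower in MAN. From IP to MAN 25.6% of all probe sets were called lower. The list for pollen matched only 2 probe sets of profilin, an actin-binding protein. They were already at 9.96 and 13.93 in PM and were at 10.42 and 13.9 in MAN, so they did not mark pollen here, and 1 was called lower in IP and 0 in MAN. The part of these cell types in the CYP86 results was not tested.

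The probe sets most like CYP86 were sought with the mean of its 3 regions, each centred on its own mean over the stages. This profile was -0.19 in PM, 0.05 in LP, -0.05 in DA, -0.13 in TT, 0.06 in T, 0.57 in IP and -0.32 in MAN. Among 19512 probe sets that ranged by at least 1 and passed a mean of 5 in some stage, 115 had a Pearson r of at least 0.95 with it over the 7 stage means. The 5 highest were TaAffx.50930.1.S1_at (r = 0.993), Ta.30542.1.S1_at (0.989), Ta.29524.2.S1_a_at (0.987), Ta.2742.3.S1_x_at (0.987) and Ta.881.2.S1_a_at (0.986), and none of them has a gene symbol here. Because the 3 regions part in MAN, this mean profile is that of no single region, and the number of such matches differed widely between regions. By itself the 3′ region had 1005 probe sets with r of at least 0.95, the middle region 89 and the 5′ region 1371. The highest were Ta.1392.1.S1_at with the 3′ region (r = 0.999), Ta.11.3.S1_a_at with the middle region (0.986) and Ta.4219.2.S1_a_at with the 5′ region (0.999).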

How the data were processed

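RNA of wheat anthers at 7 stages was measured on the Affymetrix wheat GeneChip, 3 arrays per stage. The authors deposited 1 intensity per probe set and array, computed with RMA (background correction, normalization of the arrays and a summary over probes). The values proved to be linear and were converted to log2. No background value, detection call or probe sequence was used here. Groups came from the labels. The whole table of 61290 rows was fitted with limma 3.58.1 (R 4.3.3) over 21 arrays, with Benjamini-Hochberg adjustment per contrast and over the table. On the deposited scale the fit had 14 residual and 10.5 prior degrees of freedom. Differences between 2 regions on an array were added as rows and fitted in the same way. The fit was tested on simulated data. Members and gene lists were chosen with earlier results of these data known. Beside the members, the rule named the 5 probe sets with the most similar profile and the list members found by symbol. Alternatives were other scalings, tests, bounds and arrays left out. Leaving IP replicate 1 out of comparisons without IP, the F test without MAN, the matches of each single region, the lower bounds of the 3′ region in MAN and the opposite calls on other scales were added after seeing the data. No 2 arrays held identical values. Figures were drawn with matplotlib 3.10.9.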

Additional observations from a re-analysis of the deposited data

How the results depend on the processing

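Directions and calls of the 3 regions were recomputed under each alternative, with 501 values unchanged in direction and call, 28 that turned in sign or were at 0 without being called in either setting (all at most 0.217 in size), 21 that lost a call, 4 that gained one and 4 that reversed. The 4 reversals came with the scaling to the hybridization controls: the middle and 5′ regions in MAN against the first 4 stages (-0.145 and -0.186, neither called) and the middle and 5′ regions from IP to MAN (-1.33 and -0.951, adjusted p = 1.8e-04 and 0.0063 in limma). With that scaling the numbers of regions called were 0 for LP against PM, 1 for IP against T, 3 for MAN against IP and 1 for MAN against the first 4 stages, and the probe sets called went from 3617 to 32 for LP against PM, from 2792 to 44 for DA against LP, from 1605 to 120 for TT against DA, from 3797 to 543 for T against TT, from 10563 to 2330 for IP against T and from 19200 to 11912 for IP against the first 4 stages. With a minimum of 2-fold, 0 regions were called for LP against PM, 0 for IP against T, and 1 each (the 3′ region) for MAN against IP and for IP and MAN against the first 4 stages. Array weights called 2 regions for T against TT and 1 for IP against T. An intensity trend called 1 for IP against T, where the middle region had an adjusted p of 0.052. Limma on the 2 stages alone called 1 region for T against TT and 1 for IP against T. The methods' t-test called 0 regions for LP against PM and 0 for IP against T. Its adjusted p for the 3′ region was 0.286 and 0.0639, and both were under 0.05 before adjustment. With each array left out in turn, the regions called were 0 to 1 for LP against PM and 1 to 2 for IP against T, and the region pairs called were 0 to 1 for LP against PM and 1 to 2 for IP against T. Of the 5 most similar probe sets, 0 were shared when r was taken over the 21 arrays and 2 with Spearman's rho. Whether replicate numbers pair the arrays was not settled. Deviations of same-numbered arrays correlated at -0.39 to 0.39 (median 0.01, 63 pairs), and those of arrays with different numbers at -0.33 to 0.35 (median 0, 126 pairs). On average 11 of 21 arrays correlated best with their own number, so a pairing is not excluded. With the replicate number as a block, 3 regions were called over the stages, 1 for LP against PM, 2 for IP against T and 3 for MAN against the first 4 stages, and the block changed no call of a region.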
